A study of Mus musculus with 6 samples.

Results

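Prostate RNA was examined here for 8 genes that encode proteins secreted into prostatic fluid, namely Pbsn, Msmb, Tgm4, Spink1, Sbp, Defb50, Apof and Azgp1. They were chosen by gene symbol, without reference to a threshold on expression, and make up 8 of the 47719 gene rows measured in each mouse. All 8 had a mean of at least 1 FPKM (fragments per kilobase of transcript, scaled to the mapped fragments of the library, a level corrected for gene length) and were therefore among the 13818 genes tested. The study set out to find genes whose expression depends on the Trp53 R270H allele, a missense mutation of the p53 tumor suppressor. The mice were of the strain B6.129S4-Trp53tm3.1Tyj/J. Each genotype was represented by 2 animals, named here by their own numbers. Mice 39 and 41 were wildtype (Trp53+/+), mice 37 and 40 were heterozygous with 1 mutant allele, and mice 47 and 49 were homozygous with 2. All 6 mice, wildtype included, were about 3 months old and were killed 6 h after 5 Gy of whole body irradiation, so no unirradiated prostate enters any comparison. The tissue was labelled prostate gland, with no lobe named.

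The mouse prostate consists of paired lobes (anterior, dorsal, lateral and ventral) whose luminal cells release large amounts of a few proteins, and the lobes differ in which protein dominates. Probasin and β-microseminoprotein are known mainly from the dorsal and lateral lobes, transglutaminase 4 from the dorsal and anterior lobes, and spermine-binding protein from the ventral lobe, while the SPINK1 trypsin inhibitor is also made by the seminal vesicle. Most of these genes depend on androgen. The seminal vesicle lies against the anterior prostate and makes its own set of abundant secreted proteins, among them those that transglutaminase 4 cross-links into the copulatory plug.

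Secretory transcripts were abundant, and several differed widely between mice of the same genotype. Homozygous mouse 47 had 257 FPKM of Pbsn against 7329 in homozygous mouse 49, and 131 FPKM of Tgm4 against 3179, while its Spink1 level ranked next to the highest of all mice. Sbp was listed at 0 in 4 mice and at 19587 and 24775 FPKM in the other 2. Because of these zeros, the share of the summed FPKM is given for the 7 other genes. It was 15.6% in wildtype mouse 39 and 6.73% in wildtype mouse 41. In the heterozygous mice it was 6.82% in mouse 37 and 8.31% in mouse 40, and in the homozygous mice 5.91% in mouse 47 and 7.67% in mouse 49. With Sbp counted as listed, the share was 9.96% in mouse 41 and 10.7% in mouse 37. With all 6 mice, no member passed an adjusted p of 0.05 in any comparison of genotypes (limma).

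Among the members above 0 in all mice, Pbsn and Tgm4 were the 2 for which mouse 47 lay furthest below every other mouse. The lowest other mouse had 28.6 times the mouse 47 level of Pbsn and 24.2 times that of Tgm4. The promoters of these 2 genes are shown for that reason. Each runs from 250 bases before to 50 bases after the annotated start, 5′ to 3′ on the strand of the gene, and is taken from RefSeq on GRCm38.p6. Capitals mark TGTTCT on either strand (AGAACA when read on the gene's own strand), a hexamer found in steroid hormone response elements, and TATAAA on the gene's strand within the 60 bases before the start.
Pbsn, chrX:77853451-77853750, minus strand: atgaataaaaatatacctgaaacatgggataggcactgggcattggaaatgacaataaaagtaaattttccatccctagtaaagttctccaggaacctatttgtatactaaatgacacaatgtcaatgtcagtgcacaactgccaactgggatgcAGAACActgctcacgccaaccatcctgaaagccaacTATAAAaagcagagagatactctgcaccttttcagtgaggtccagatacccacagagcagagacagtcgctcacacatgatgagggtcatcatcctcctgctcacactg
Tgm4, chr9:123034491-123034790, plus strand: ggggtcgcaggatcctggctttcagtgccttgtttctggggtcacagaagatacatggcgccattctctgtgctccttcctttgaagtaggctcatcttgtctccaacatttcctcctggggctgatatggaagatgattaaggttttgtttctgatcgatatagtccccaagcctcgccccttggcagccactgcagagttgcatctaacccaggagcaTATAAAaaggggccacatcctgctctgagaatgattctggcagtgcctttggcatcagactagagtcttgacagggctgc

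The hexamer lies at -95 from the start in Pbsn and is not among the letters of the Tgm4 window. TATAAA lies at -59 in Pbsn and at -30 in Tgm4. These positions are counted from the RefSeq starts. The GENCODE span of Pbsn given below reaches further upstream, to 77853623, so both Pbsn motifs lie inside that span. RefSeq promoters were at hand for 4 of the 8 members. The Azgp1 window holds TGTTCT at 14 bases after the start, and of the 3 start windows listed for Sbp only that of the most downstream start holds it, at -64. Neither Azgp1 nor any Sbp window holds TATAAA in that stretch. Of 32817 promoters of the same length, 19.0% hold the hexamer and 2.88% hold TATAAA in the same stretch. The motifs were chosen with the expression values known, and a match is a description of letters and not of a bound site.

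Pbsn encodes probasin, a lipocalin of the prostatic lumen. Its gene (ENSMUSG00000000003) spans 77837901 to 77853623 of chromosome X on the minus strand of GRCm38. Pbsn was at 11192 and 11512 FPKM in wildtype mice 39 and 41, at 8360 and 8174 FPKM in heterozygous mice 37 and 40, and at 257 and 7329 FPKM in homozygous mice 47 and 49. Mice of the same genotype differed by 1.03-fold in wildtype and 1.02-fold in heterozygous mice, but by 28.6-fold in homozygous mice. Both values of each genotype lay below both values of the genotype with fewer mutant alleles, which held for 1 of the 8 members and for 4.98% of all genes tested. Mean levels were 11352 ± 227 FPKM (wildtype), 8267 ± 131 FPKM (heterozygous) and 3793 ± 5001 FPKM (homozygous; SD, n = 2 each). On the log2 scale the change was -3.05 in homozygous against wildtype mice (standard error 1.48, adjusted p = 0.34, limma) and -0.46 in heterozygous mice (standard error 1.48, adjusted p = 0.977, limma). The 3 genotypes share 1 estimate of the spread, so the heterozygous standard error also holds the gap between mice 47 and 49. Without mouse 47 the homozygous change was -0.63, and without mouse 49 it was -5.47, so its size depended on which homozygous mouse was kept. Each of these fits had 1 homozygous mouse.

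Tgm4 encodes transglutaminase 4, the prostatic enzyme that cross-links seminal vesicle proteins after ejaculation. It spans 123034726 to 123067561 of chromosome 9 on the plus strand (ENSMUSG00000025787). Its level was 4819 and 9060 FPKM in the wildtype mice, 6674 and 4124 FPKM in the heterozygous mice, and 131 and 3179 FPKM in homozygous mice 47 and 49. Both homozygous values lay below every other mouse, whereas the heterozygous values fell on either side of wildtype mouse 39. The highest mouse had 68.9 times the level of the lowest, the widest range among the 7 members above 0 in all mice. The log2 fold change in homozygous against wildtype mice was -3.35 (standard error 1.43, adjusted p = 0.294, limma). It was -1.06 without mouse 47 and -5.65 without mouse 49, each with 1 homozygous mouse left. The 3' end of Tgm4 overlaps Zdhhc3 on the opposite strand, and whether strand was used in the counting is not given in the sources used here. Zdhhc3 ranged only from 27.3 to 32.1 FPKM.

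**Figure D1:**
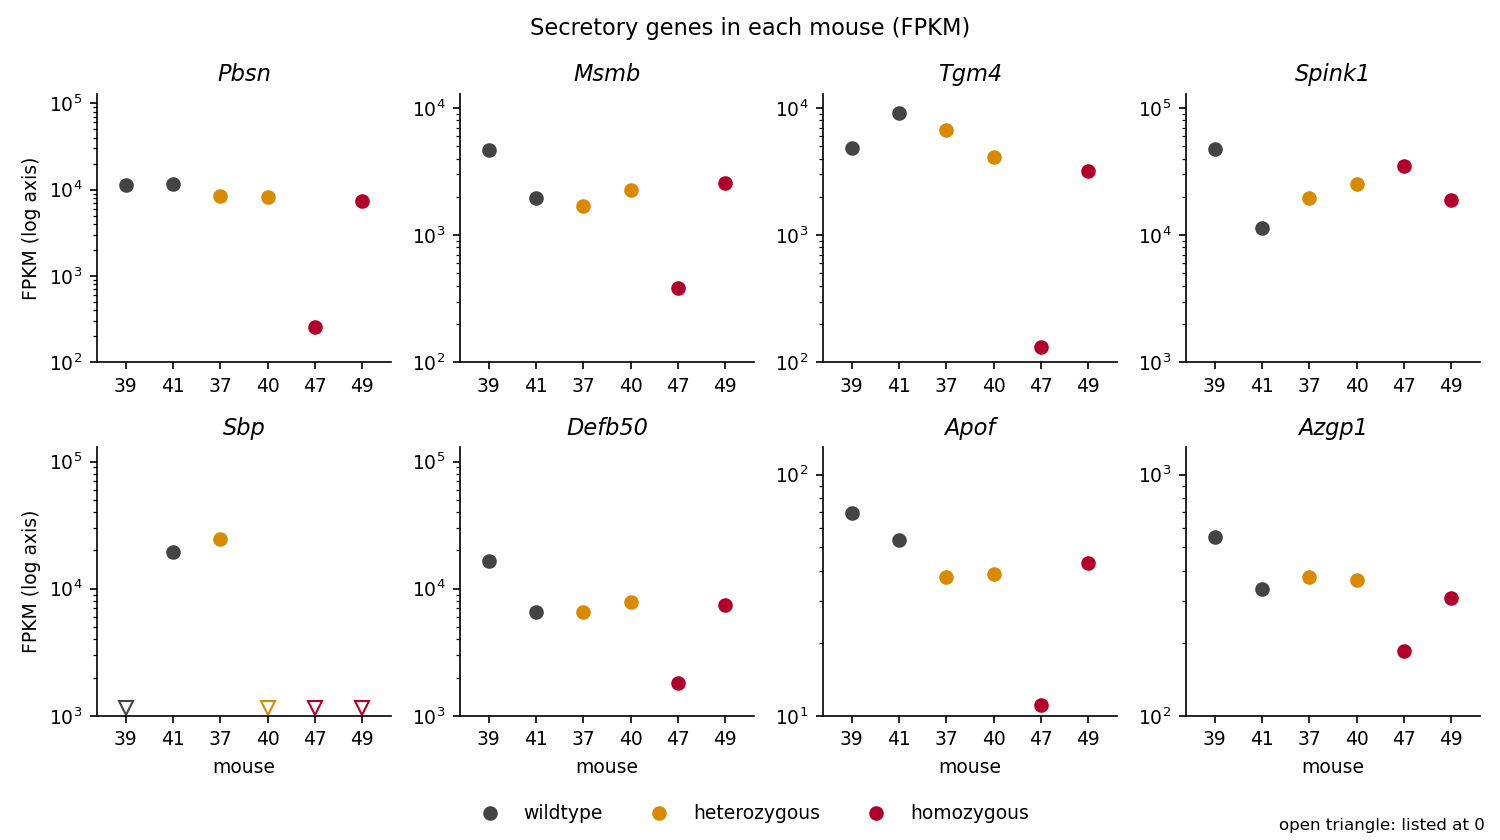
FPKM on a log axis for each of the 8 genes (panels) in each of the 6 mice, colored by genotype, with open triangles for values listed at 0. Mouse 47 is the lowest point for Pbsn, Msmb, Tgm4, Defb50, Apof and Azgp1 but not for Spink1, and Sbp is above 0 only in mice 41 and 37.

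Msmb encodes β-microseminoprotein, a small cysteine-rich protein of seminal plasma. It spans 32142023 to 32158370 of chromosome 14 on the plus strand (ENSMUSG00000021907). Msmb was at 4708 and 1947 FPKM in the wildtype mice, 1683 and 2257 FPKM in the heterozygous mice, and 387 and 2556 FPKM in homozygous mice 47 and 49. The wildtype mice differed by 2.42-fold and the homozygous mice by 6.61-fold, so that mouse 49 exceeded wildtype mouse 41 and both heterozygous mice. Msmb had a log2 fold change of -1.61 in homozygous against wildtype mice (standard error 0.93, adjusted p = 0.411, limma). It was -0.24 without mouse 47, -2.97 without mouse 49 and -0.97 without mouse 39.

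Defb50 encodes a β-defensin, of a family of small cationic antimicrobial peptides, and lies in the defensin cluster of chromosome 8 (21823539 to 21831296, plus strand, ENSMUSG00000058568). Its level was 16450 and 6603 FPKM in the wildtype mice, 6575 and 7847 FPKM in the heterozygous mice, and 1809 and 7437 FPKM in homozygous mice 47 and 49. As for Msmb, wildtype mouse 39 stood above all others and mouse 47 below all others. The ratio of Defb50 to Msmb stayed between 2.91 and 4.68 in the 6 mice, while Defb50 itself ranged 9.09-fold. Its log2 fold change was -1.51 in homozygous against wildtype mice (standard error 0.85, adjusted p = 0.399, limma). It was -0.49 without mouse 47, -2.53 without mouse 49 and -0.85 without mouse 39.

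Spink1 encodes a secreted trypsin inhibitor of the Kazal family and had the highest mean of the 7 members above 0 in all mice. It lies on chromosome 18 (43728082 to 43737557, minus strand, ENSMUSG00000024503). Its level was 47210 and 11408 FPKM in the wildtype mice, 19484 and 25034 FPKM in the heterozygous mice, and 34822 and 18936 FPKM in homozygous mice 47 and 49. The highest and the lowest value were thus both wildtype, and mouse 47 ranked next to the highest. As listed, Spink1 was the most abundant member in the 4 mice where Sbp was listed at 0, and Sbp was in the other 2. An exact 0 can be a failed estimate, so the order in those 4 mice is uncertain. Spink1 had a log2 fold change of 0.15 in homozygous against wildtype mice (standard error 1.04, adjusted p = 0.955, limma), and it turned to -0.29 without mouse 47 and to -0.88 without wildtype mouse 41.

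Spink1 was out of step with Pbsn. The ratio of Spink1 to Pbsn was 4.22 and 0.991 in wildtype mice 39 and 41, 2.33 and 3.06 in the heterozygous mice, 2.58 in mouse 49 and 136 in mouse 47. The ratio of Spink1 to Tgm4 was 265 in mouse 47 and between 1.26 and 9.8 in the other 5. Pbsn and Tgm4 kept a ratio of 1.95 to each other in mouse 47, within the 1.25 to 2.32 of the other mice.

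Sbp encodes spermine-binding protein, an androgen-dependent polyamine-binding glycoprotein. It spans 23941672 to 23945607 of chromosome 17 on the plus strand (ENSMUSG00000024128). Sbp was listed at 0 in wildtype mouse 39 and at 19587 FPKM in wildtype mouse 41. It was listed at 24775 FPKM in heterozygous mouse 37 and at 0 in heterozygous mouse 40, and at 0 in both homozygous mice. Values of 0 and very high values thus stood within the wildtype and within the heterozygous group, and neither a fold nor a mean is given. The status field read OK for every one of these values, also where the value was 0, and an exact 0 in such a table can be a failed estimate.

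Exact zeros beside high values were not limited to Sbp. Of 77 genes that reached 1000 FPKM in some mouse, 7 were listed at 0 in another, and of 15 that reached 10000 FPKM, 5 were. The 7 were Sbp, the seminal vesicle genes Svs2, Svs4 and Svs5, the mitochondrial tRNA genes mt-Tv and mt-Ts1, and Gm42418. Gm42418 was listed at 0 in mouse 49 and at 6443 to 11554 FPKM in the other 5 mice. Svs4 was listed at 0 in mouse 47 and at 1331 to 11767 FPKM in the others, and Svs5 at 0 in mouse 47 and at 1731 to 28678 FPKM. Svs2 was listed at 0 in both homozygous mice and at 256 to 14734 FPKM in the other 4.

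A near copy of Sbp, Sbpl, lies 7476 bases away on the opposite strand. The longest transcripts of both aligned over 771 bases with 96.4% identity, so reads could be shared between them. Sbpl was at 27.4 and 6.34 FPKM in wildtype mice 39 and 41, 7.64 and 15.2 FPKM in heterozygous mice 37 and 40, and 23.9 and 12.6 FPKM in homozygous mice 47 and 49. It was lowest in mice 41 and 37, where Sbp was listed above 0, but even its highest value was far below the Sbp of those mice. Whether reads of Sbp were lost to Sbpl or elsewhere was not tested.

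Apof encodes apolipoprotein F, a lipoprotein-associated protein best known from liver, and was the least abundant member by mean. It spans 128268671 to 128270153 of chromosome 10 on the plus strand (ENSMUSG00000047631). Apof was at 69.4 and 53.8 FPKM in the wildtype mice, 37.5 and 38.7 FPKM in the heterozygous mice, and 11.1 and 43.2 FPKM in homozygous mice 47 and 49. All 4 mutant mice lay below both wildtype mice, although mouse 49 lay above the heterozygous mice. Its log2 fold change was -1.48 in homozygous (standard error 0.59, adjusted p = 0.277, limma) and -0.68 in heterozygous mice (standard error 0.59, adjusted p = 0.908, limma). As for Pbsn, the heterozygous standard error also holds the gap between mice 47 and 49. The homozygous change was -0.5 without mouse 47 and -2.45 without mouse 49, each with 1 homozygous mouse left.

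Azgp1 encodes zinc-α2-glycoprotein, a secreted protein with the fold of MHC class I molecules. It spans 137981520 to 137990233 of chromosome 5 on the plus strand (ENSMUSG00000037053). Azgp1 was at 551 and 334 FPKM in the wildtype mice, 376 and 366 FPKM in the heterozygous mice, and 186 and 308 FPKM in homozygous mice 47 and 49. Its range of 2.96-fold was the narrowest among the 7 members above 0 in all mice, and both homozygous mice lay below all others. The log2 fold change in homozygous against wildtype mice was -0.84 (standard error 0.34, adjusted p = 0.273, limma). It was -0.48 without mouse 47 and -0.48 without mouse 39, each with 1 mouse left in that group.

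Across the genotypes, 0 of 8 members were called at an adjusted p under 0.05 in homozygous against wildtype mice, where 0.384% of all genes tested were. In heterozygous against wildtype mice 0 members and 0% of all genes were called, and in homozygous against heterozygous mice 0 members and 0.0145% of all genes. The F-test over the 3 genotypes also called 0 members, beside 0.101% of all genes. At an unadjusted p under 0.05, 2 members (Apof and Azgp1) differed in homozygous against wildtype mice, beside 18.0% of all genes. At the same threshold 0 members differed in the other 2 contrasts and in the F-test, beside 6.87% of all genes in heterozygous against wildtype, 6.39% in homozygous against heterozygous and 11.5% in the F-test.

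Most members had negative fold changes, but single mice set their size. Of the 7 members above 0 in all mice, 7 had a negative log2 fold change in heterozygous and 6 in homozygous against wildtype mice, with 52.8% and 55.0% of all genes negative. Their median log2 fold change was -0.46 in heterozygous and -1.51 in homozygous mice, beside -0.01 and -0.04 over all genes. The 2 contrasts share the wildtype mice, and wildtype mouse 39 was the highest mouse for 5 of the 8 members. Without mouse 39 the heterozygous median was 0 with 3 of 7 negative, and without mouse 41 it was -0.86. The homozygous median against wildtype was -0.49 without mouse 47 (7 of 7 negative), -2.53 without mouse 49 and -0.97 without mouse 39. In homozygous against heterozygous mice 6 of 7 were negative with a median of -0.97, beside 54.2% of all genes negative and a median of -0.03, and the members' median was -0.17 without mouse 47 (4 of 7 negative) and -1.99 without mouse 49. Without overlap between groups, 4 members (Pbsn, Tgm4, Apof and Azgp1) were lower in homozygous than in wildtype mice, beside 28.7% of all genes, and 2 (Pbsn and Apof) in heterozygous than in wildtype mice, beside 19.9%.

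**Figure D2:**
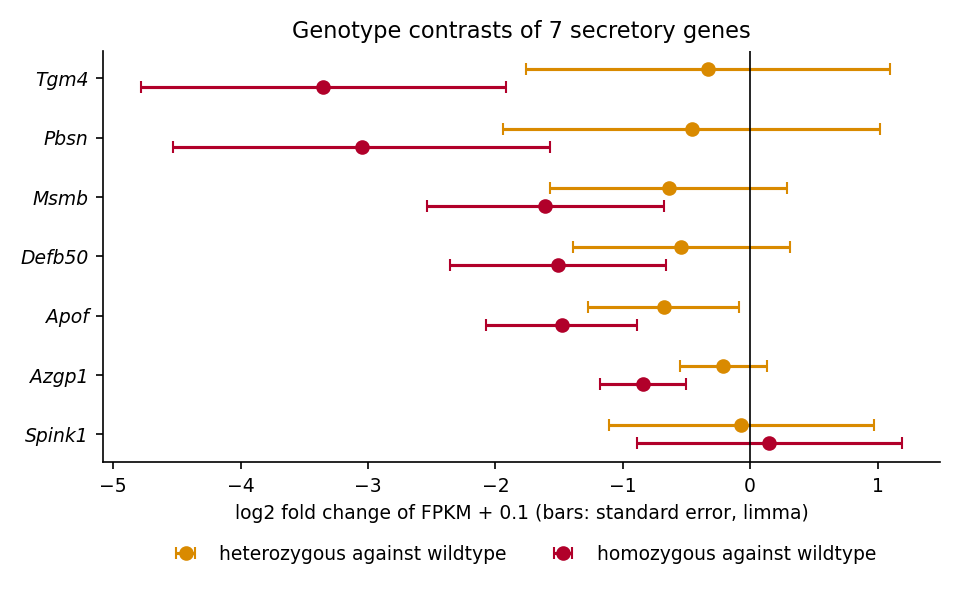
Log2 fold change of FPKM + 0.1 against wildtype for the 7 secretory genes above 0 in all mice, in heterozygous (orange) and homozygous (red) mice. Bars are the standard error from limma, which pools the spread of all genotypes. Homozygous points run from -3.35 for Tgm4 to 0.15 for Spink1, and heterozygous points all lie between -0.68 and -0.07.

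Spread within a genotype was wide for these genes. In homozygous mice 5 of the 7 members differed by at least 2-fold between the mice, beside 6.52% of all genes tested. In wildtype mice 3 of 7 did (Msmb, Spink1 and Defb50), beside 6.3%. In heterozygous mice 0 of 7 did, beside 2.0%, and the largest difference there was 1.62-fold for Tgm4. Mouse 47 was the lowest of the 6 mice for 6 of 8 members, beside 25.5% of all genes, and lay more than 5 times below every other mouse for 2 (Pbsn and Tgm4), beside 0.963%. These last counts were added after mouse 47 had been seen to stand apart.

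Seminal vesicle transcripts also differed between mice, most in mice 47 and 39. The 8 seminal vesicle genes above 0 in every mouse (Svs1, Svs3a, Svs3b, Svs6, Spinkl, Pate4, Ceacam10 and Sva) were highest in mouse 47 and lowest in mouse 39 for 8 of 8. The shares of all genes highest in mouse 47 or lowest in mouse 39 were not computed. The 8 genes summed to 331 and 6754 FPKM in wildtype mice 39 and 41, 6247 and 5635 FPKM in heterozygous mice 37 and 40, and 91669 and 5951 FPKM in homozygous mice 47 and 49. Mouse 47, with the least Pbsn and Tgm4, thus had the highest sum of these 8 genes. Mouse 39, with the most Spink1, Msmb and Defb50, had the lowest. The sum did not follow the secretory genes in every mouse. Mouse 41, with the most Pbsn (11512 FPKM) and Tgm4 (9060 FPKM), had the sum next to the highest. That rank, and the size of the excess in mouse 47, hold only for these 8 genes. Svs5, left out for its 0 in mouse 47, alone exceeded the sum in each other mouse, with 24908 FPKM in mouse 41 and 28678 FPKM in mouse 37. Spink1 in mouse 47 (34822 FPKM) was next to its highest. Within these 8 genes Svs6 reached 26147 FPKM in mouse 47, while Svs2, Svs4 and Svs5 were listed at 0 there. Of the 11 genes in the list 1, Svs2, was called lower in homozygous than wildtype mice, on the values listed at 0 above. Of all genes tested, 0.384% were called in that contrast, in either direction. The part of seminal vesicle tissue in the secretory gene values was not tested, nor was that of the lobes dissected. In these bulk samples fewer cells of a type and less RNA per cell cannot be told apart.

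**Figure D3:**
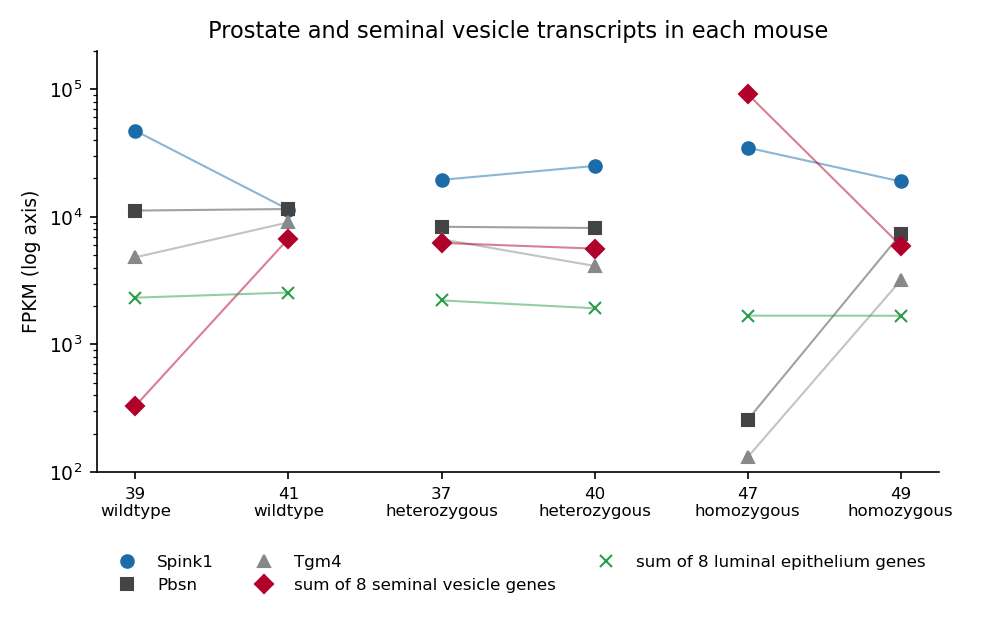
FPKM on a log axis in each mouse for Spink1, Pbsn and Tgm4, for the sum of 8 seminal vesicle genes and for the sum of 8 luminal epithelium genes, with lines joining mice of the same genotype. In mouse 47 the seminal vesicle sum (91669) is highest while Pbsn (257) and Tgm4 (131) are lowest, and the luminal sum (1682) is close to that of mouse 49 (1680).

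Luminal epithelial genes were present in every mouse. Whether their RNA came from prostate or from another gland was not tested. The 8 luminal genes (Krt8, Krt18, Krt19, Epcam, Cdh1, Cd24a, Foxa1 and Hoxb13) summed to 2327 and 2552 FPKM in wildtype mice 39 and 41, 2215 and 1922 FPKM in heterozygous mice 37 and 40, and 1682 and 1680 FPKM in homozygous mice 47 and 49. None was listed at 0, and 5 were lowest in mouse 47, beside 25.5% of all genes. In homozygous against wildtype mice 5 were lower at an unadjusted p under 0.05, with 0 at an adjusted one. That unadjusted p was reached by 18.0% of all genes, in either direction. Cd24a, a cell surface glycoprotein gene, had the highest mean, from 435 FPKM in mouse 47 to 837 FPKM in mouse 41, and Cdh1, which encodes E-cadherin, the lowest, from 65.1 FPKM in mouse 47 to 94.9 FPKM in mouse 39.

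Other androgen-responsive genes were mixed. Of the 9 genes listed 8 were tested and 0 were called. In homozygous against wildtype mice 2 were lower at an unadjusted p under 0.05, beside 18.0% of all genes in either direction. In mouse 47, 4 were lowest, beside 25.5% of all genes. Sgk1, a kinase with the highest mean of that list, ranged from 125 FPKM in mouse 39 to 434 FPKM in mouse 47. Acpp, prostatic acid phosphatase, had the lowest mean of those tested and ranged from 2.32 to 4.59 FPKM. Tmprss2, a membrane serine protease of luminal cells, was at 37.5 FPKM in mouse 47 and at 72.0 to 152 FPKM in the others.

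Other secreted proteins of the accessory glands were listed beside the 8 members, with a median change of the opposite sign. Of 18 such genes 10 were tested and 0 were called. At an unadjusted p under 0.05, 5 were higher and 1 lower in homozygous against wildtype mice, beside 18.0% of all genes in either direction. In heterozygous against wildtype mice 4 were higher and 0 lower, beside 6.87% of all genes in either direction. The median log2 fold change in homozygous against wildtype mice was 0.78 over the tested genes of this list and -1.51 over the 7 members above 0 in all mice. Single mice stood out here too. Of the 13 genes of this list above 0 in all mice, 7 were highest and 1 was lowest in mouse 47, and 5 were lowest in mouse 39. The median of this list was not computed with single mice left out. Agr2, a protein disulfide isomerase with the highest mean, was lowest in mouse 47 (250 FPKM) and highest in mouse 41 (975 FPKM). Clu, clusterin, was at 255 and 326 FPKM in wildtype, 468 and 498 FPKM in heterozygous, and 594 and 501 FPKM in homozygous mice.

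Markers of neighbouring tissues differed too. The 8 skeletal muscle genes were all lowest in mouse 39, for which the share of all genes was not computed. All 8 were higher at an unadjusted p under 0.05 in both heterozygous and homozygous against wildtype mice, with 0 called at an adjusted p. That unadjusted p was reached by 6.87% and 18.0% of all genes in these contrasts, in either direction. The 8 genes summed to 1527 and 2270 FPKM in wildtype, 4297 and 4517 FPKM in heterozygous, and 5409 and 4549 FPKM in homozygous mice. Among them Acta1, skeletal α-actin, ranged from 460 to 1532 FPKM and Actn3 from 26.7 to 129 FPKM. The 7 smooth muscle genes summed to 1660 FPKM in mouse 39 and 2696 FPKM in mouse 47, the lowest and highest mouse, with Acta2 at 498 to 796 FPKM and Lmod1 at 15.9 to 24.4 FPKM. Crisp1, the only gene tested of 6 for epididymis and vas deferens, ranged from 30.4 FPKM in mouse 39 to 712 FPKM in mouse 47. The part of these tissues in the values of the secretory genes was not tested.

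The other lists are given by their ranges. The 4 basal epithelial genes summed to 124 to 186 FPKM, with Krt15 from 72.4 to 131 FPKM and Trp63 from 3.19 to 5.94 FPKM. The 6 leukocyte genes summed to 59.4 FPKM in mouse 47 and to 164 FPKM in mouse 49, with Lyz2 from 29.2 to 101 FPKM and Ptprc from 1.18 to 2.61 FPKM. The 6 adipocyte genes summed to 311 to 670 FPKM, with Cfd from 144 to 304 FPKM and Lep from 1.27 to 5.69 FPKM. The 5 urothelial genes summed to 207 to 296 FPKM, a sum set mostly by Upk1a (114 to 204 FPKM) and Upk1b (52.2 to 119 FPKM). Upk2, Upk3a and Upk3b were far less abundant, varied more widely and were all lowest in mouse 39. Upk2 ranged from 1.92 to 22.1 FPKM, Upk3a from 0.0838 to 15.5 FPKM and Upk3b from 0.16 to 2.75 FPKM. None of the genes of these lists was called in any contrast.

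Genes near the members were compared over a window of 60 kb on each side, chosen after the values had been seen. Neighbours were protein-coding genes with a mean of at least 1 FPKM beside a member above 0 in all mice. Of 17 such neighbours, 5 had a Pearson r over 0.9 with the member across the 6 mice, on log2(FPKM + 0.1). All 5 stayed over 0.9 without mouse 47. The share of all genes that reach such an r with a member was not computed. Stat2, beside Apof, had r = 0.51 over the 6 mice and 0.91 without mouse 47. Ncoa4, a nuclear receptor coactivator and ferritin receptor, lies 1494 bases beyond Msmb on the same strand. It was at 27.7 and 13.6 FPKM in wildtype, 13.1 and 14.7 FPKM in heterozygous, and 5.03 and 19.1 FPKM in homozygous mice 47 and 49, and r with Msmb was 0.99 (0.98 without mouse 47). Timm23, the next gene on the opposite strand, ranged only from 21.2 to 27.6 FPKM. Ncoa4 was far less abundant than Msmb, and whether its reads run on from Msmb was not tested.

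Defb50 has the β-defensin genes Defb1 and Defb10 at 28353 and 27604 bases. Defb1 ranged from 153 FPKM in mouse 47 to 927 FPKM in mouse 39 (r = 0.99 with Defb50), and Defb10 from 1.07 to 22.0 FPKM in the same mice (r = 0.97). Defb2, which lies closer at 8629 bases, had r = -0.18. Tmem42, at 11020 bases from Tgm4, ranged from 13.0 FPKM in mouse 47 to 41.9 FPKM in mouse 41 (r = 0.96), and Prkx, at 41622 bases from Pbsn, from 5.46 to 9.0 FPKM (r = 0.98). Points of each correlation share a library and its scaling.

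**Figure D4:**
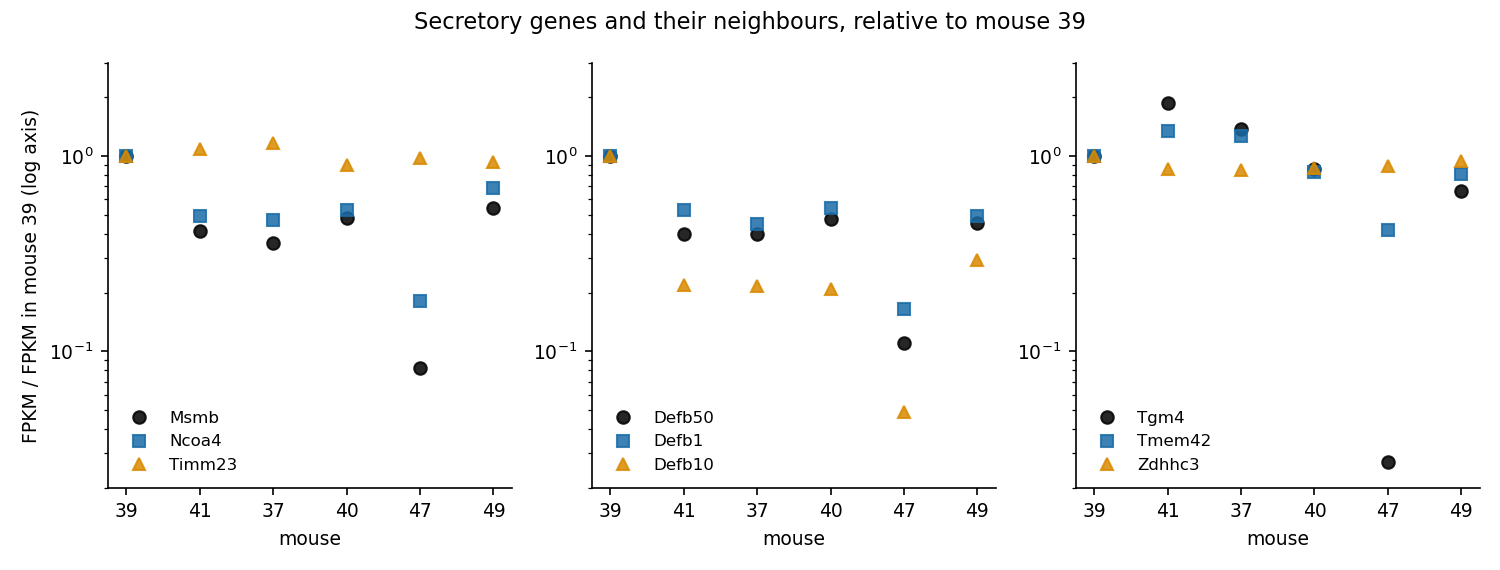
FPKM of Msmb, Defb50 and Tgm4 and of 2 neighbouring genes each, divided by the value in mouse 39, on a log axis for the 6 mice. Ncoa4, Defb1, Defb10 and Tmem42 are lowest in mouse 47, as Msmb, Defb50 and Tgm4 are, while Timm23 and Zdhhc3 stay near 1.

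The genes most alike in pattern were sought among 2487 genes above 0 in every mouse that ranged at least 2-fold, by Pearson r of log2(FPKM + 0.1) over the 6 mice. With so few mice, and with mouse 47 far from the others, high values of r are frequent. Most like Pbsn were Man1a (r = 0.997), Pde4b (0.996) and Tcaf2 (0.995), and these fell to 0.927, 0.882 and 0.758 without mouse 47. Man1a, a mannosidase of the Golgi, was at 24.3 FPKM in mouse 47 and at 217 to 358 FPKM in the others. Most like Tgm4 were Adarb2 (0.999), Atp6v1c2 (0.998) and Gpr37l1 (0.998), with 0.98, 0.967 and 0.959 without mouse 47.

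Most like Msmb were Ldlrad3 (0.998), Smgc (0.994) and Tmem64 (0.994), and most like Defb50 were Habp2 (0.998), Smgc (0.998) and Defb1 (0.994). Smgc, a mucin-like secretory gene, thus stood in both sets, at 8.57 FPKM in mouse 39, 0.19 FPKM in mouse 47 and 2.28 to 3.14 FPKM in the other 4. Most like Apof were Dnajc10 (0.996), Erlec1 (0.993) and Enpp1 (0.992), of which Dnajc10 is a chaperone of the endoplasmic reticulum at 209 to 707 FPKM. Most like Azgp1 were Nkx2-6 (0.995), Zdhhc14 (0.995) and Trafd1 (0.988). Most like Spink1 were Gstk1 (0.991), Ak4 (0.987) and Fam84a (0.987), and Gstk1, a glutathione transferase, had its lowest value of 17.8 FPKM in mouse 41 and its highest of 42.8 FPKM in mouse 39, as Spink1 did.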

How the data were processed

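The authors prepared stranded mRNA libraries from snap-frozen prostates, used HISAT for alignment to GRCm38, and deposited gene-level FPKM from Cufflinks, 1 table for each of 6 mice. Tool versions and annotation are not given in the sources used here. The deposited FPKM hold no fragment counts, so counting intervals cannot be given. Steps between low values put the fragments of mice 41, 37, 40, 47 and 49 at 0.78 to 1.07 of those of mouse 39. Groups follow the labels. log2(FPKM + 0.1) of 13818 genes with a mean of at least 1 FPKM entered a linear model of the 3 genotypes (limma 3.58.1, R 4.3.3, trended eBayes). No block was used because the animals carry different numbers. P-values had Benjamini-Hochberg adjustment over all genes, with a threshold of 0.05. The fit was tested on simulated data. Fold changes carry the pseudocount and so understate changes of low genes. A p-value covers only the spread between 2 mice a genotype, pooled over the 3 genotypes and moderated over all genes. The gap between homozygous mice 47 and 49 therefore also enters the standard error of the heterozygous contrast.

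The members and lists (secretory, other secreted, seminal vesicle, luminal, basal, androgen response, smooth and skeletal muscle, adipocyte, urothelium, epididymis and vas deferens, leukocyte) were chosen with earlier results of these data known. Crisp1, Acpp and Klk1 each stand in 2 lists. Some genes of the luminal and androgen response lists are not reported here and enter no count or sum of those lists. Named were the members, the highest and lowest of each list by mean, genes called, the 3 genes most like each member above 0 in all mice (Pearson r, symbols of predicted and RIKEN genes left out), and genes at 0 in a mouse beside at least 1000 FPKM. Tmprss2, Clu, Svs6, Upk1b, Upk2, Upk3a and the neighbours were named after their values were seen. Alternatives were other pseudocounts, filters and scalings, no trend, zeros as missing and leaving out each mouse. Positions are from GENCODE M21. Python 3.11.15 was used otherwise.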

Additional observations from a re-analysis of the deposited data

How the results depend on the processing

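The count of members called stayed at 0 in every comparison of genotypes with a pseudocount of 1 or 0.01, no filter, a mean of at least 5 FPKM, median scaling, quantile normalization, a common sum without secretory and seminal vesicle genes, no trend, and zeros as missing. Leaving out each mouse gave 0 to 3 members in homozygous against wildtype mice and 0 to 1 in homozygous against heterozygous mice. The counts above 0 came without mouse 49, where mouse 47 alone stood for the homozygous mice and was assumed to vary like the other genotypes (Pbsn, Tgm4 and Apof against wildtype, Pbsn against heterozygous mice at -5.01, adjusted p = 0.0462, limma). Over all genes, homozygous against wildtype calls numbered 53, and from 4 to 128 under the alternatives.

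Signs turned only where no call was made. Quantile normalization gave 0.02 for Spink1 in heterozygous against wildtype mice. When single mice were left out, the heterozygous against wildtype change ranged from -1.27 to 0 for Msmb, -0.79 to 0.12 for Tgm4, -1.1 to 0.95 for Spink1, -1.2 to 0.12 for Defb50 and -0.57 to 0.15 for Azgp1. For homozygous against wildtype mice the range was -0.88 to 1.17 for Spink1, and for homozygous against heterozygous mice it was -2.33 to 0.39 for Msmb, -0.22 to 0.66 for Spink1, -1.99 to 0.05 for Defb50 and -1.77 to 0.18 for Apof. The highest heterozygous values came without mouse 39 except for Tgm4 (without mouse 41), and the homozygous against heterozygous signs turned without mouse 47. The cause of these turns was not tested.

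Leaving out single mice, the ratio of the highest to the lowest mouse ranged from 1.57 to 44.9 for Pbsn, 2.8 to 12.2 for Msmb, 2.85 to 68.9 for Tgm4, 2.5 to 9.09 for Defb50, 1.85 to 6.26 for Apof and 1.79 to 2.96 for Azgp1. The lowest value of each came without mouse 47, and without mouse 39 the ratio was 4.34 for Defb50 and 2.02 for Azgp1. This alternative was chosen after seeing the data. No paired analysis was possible because the mice of different genotypes share no number.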

Other observations

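Among the 15 genes that reached 10000 FPKM in a mouse, the mitochondrial mRNAs mt-Nd1, mt-Co1 and mt-Cytb were also highest in mouse 47. mt-Co1, a subunit of cytochrome c oxidase, was at 14739 FPKM there and at 7541 to 8670 FPKM in the other 5 mice. mt-Nd1 was at 11579 FPKM there and at 5614 to 6582 FPKM in the others. mt-Atp8 was at 20901 FPKM in mouse 47 and at 7910 to 16571 FPKM in the others.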
